A study of Homo sapiens with 12 samples.

Results

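The genes described here encode the cytosolic heat shock chaperones of human cells, their cochaperones and the factors HSF1 and HSF2. They were chosen by symbol from a list of 36 names, and all 36 were found among the 26364 gene rows of the deposited count table. The list was chosen with earlier results of these data known. All 36 were also among the 14184 genes with enough reads to be tested. The list is cytosolic with exceptions: HSPD1 and HSPE1 encode the mitochondrial chaperonin pair, and HSPA13 encodes an HSP70-like protein of microsomes.

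RNA was sequenced from MDA-MB-231, an established human breast cancer cell line that lacks estrogen receptor, progesterone receptor and amplified HER2. The combination wells received 1 µM dexamethasone (DEX), a steroid drug that activates the glucocorticoid receptor, together with 8 µM SH4-54, a compound that inhibits STAT3 and STAT5. The DEX wells received 1 µM DEX, the SH4-54 wells received 8 µM SH4-54, and the no-drug wells received neither compound. Treatment lasted 24 h in every group, each group held 3 wells of a 6-well format, and no source used here names a vehicle. A label field writes SH5-54 for SH4-54, and the sample titles were followed. Because the replicates are wells of a single cell line, p-values measure the spread between wells.

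Heat shock proteins hold unfolded or partly folded proteins and help them to fold. HSP70 proteins bind exposed hydrophobic stretches and release them in a cycle driven by ATP, in which HSP40 (DNAJ) proteins deliver the client and HSP110 and BAG proteins exchange the nucleotide. HSP90 takes over late-folding clients such as kinases and steroid receptors. The glucocorticoid receptor, which DEX binds, is kept ready for its ligand by HSP90 with p23 (PTGES3) and FKBP4. Protein damage frees HSF1 to form trimers that bind heat shock elements, inverted repeats of the unit GAA, in the promoters of chaperone genes.

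Counted reads per library numbered 26280158 to 35758236 in the combination wells, 26040956 to 29426776 in the DEX wells, 25577213 to 28864061 in the SH4-54 wells and 28439725 to 31552360 in the no-drug wells. Read counts are given as CPM, that is, scaled to library size with edgeR's TMM factors. The 36 genes took between 1.39% and 1.63% of the reads of a library. Marker genes were read as a check of the cell line: VIM ranged from 805 to 1365 CPM over the 12 libraries and AXL from 635 to 971 CPM, while ESR1 was at most 0.233 CPM and KRT5 at most 0.377 CPM. The epithelial genes EPCAM (17.3 to 23.2 CPM) and CDH1 (5.29 to 15.1 CPM) were low but present. HBB, a blood marker, was at 0 in all 12 libraries, and PTPRC, a leukocyte marker, was at most 0.733 CPM. After ± stand SDs over 3 wells for CPM values and standard errors for log2 fold changes.

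Several of these genes have near-identical copies, and no source used here says how reads with several possible positions were counted. To show how far the reads could be told apart, the annotated transcripts of each gene (GENCODE v29) were cut into overlapping words of 50 bases, the read length. HSPA1B and HSPA1A, neighbouring genes for the same inducible HSP70 protein, shared 73.5% and 71.3% of their words with transcripts of another gene, mostly with each other. HSPA6 shared 45.5%, all of it with its pseudogene HSPA7. Lower shares were found for ST13 (29.9%), HSPE1 (22.8%), HSP90AA1 (18.5%), HSPD1 (17.8%) and HSP90AB1 (16.6%), whose partners were mostly processed pseudogenes. BAG2 shared 43.9% with transcripts of 61 other genes, among them RAB23, which lies beside it. Words were matched in either orientation, so that genes overlapping on the other strand count as sharing. In all, 20 of the 36 genes shared over 5% of their words, and 8 shared none, among them HSPH1, HSPB8, BAG3 and DNAJB4. Values of the genes with high shares are uncertain, since reads could be split between copies or dropped.

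**Figure D1:**
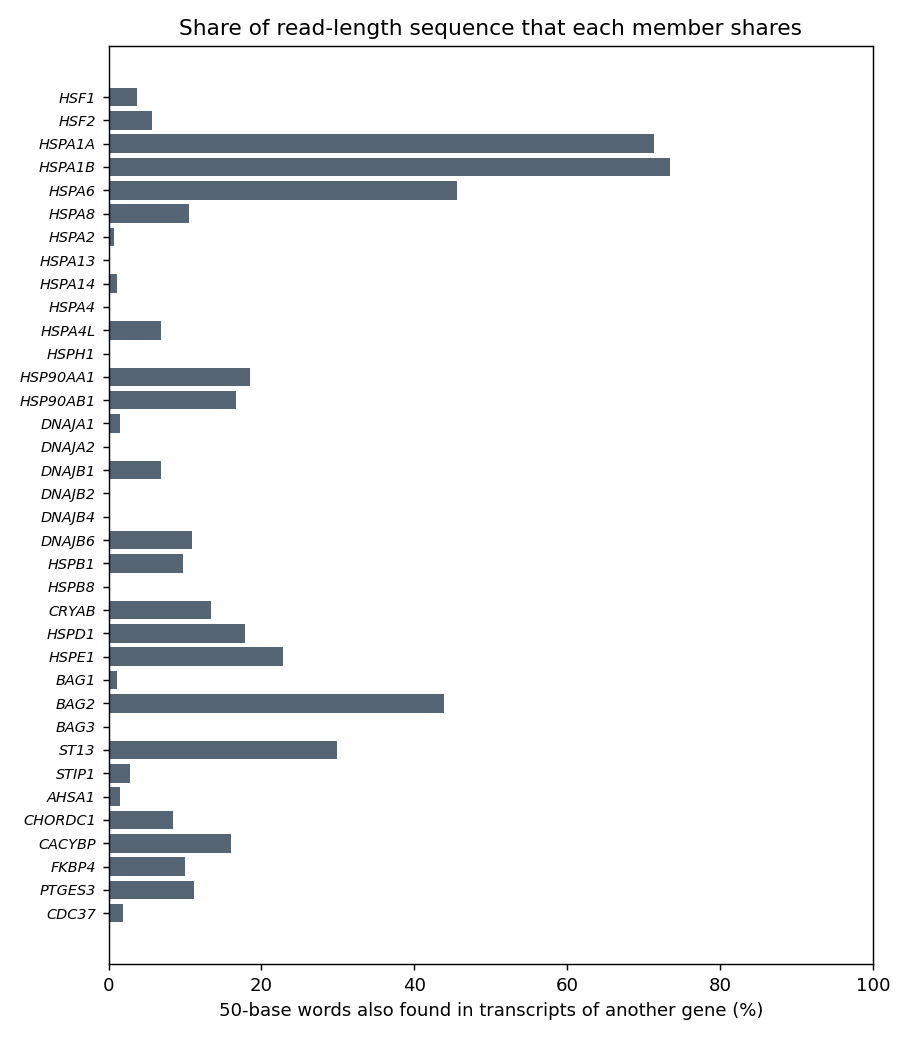
Share of 50-base words (percent, horizontal axis) of each gene's annotated transcripts that also occur in transcripts of another gene, 1 bar per gene. HSPA1B and HSPA1A stand highest at 73.5% and 71.3%, and 8 genes are at 0.

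Promoter sequences were searched for strings of the element that HSF1 binds. RefSeq promoters (GRCh38.p14) were found for 31 of the 36 genes, and the 250 bases before each start were searched on both strands for alternating units of GAA and its reverse complement TTC with any 2 bases between neighbours. A 3-unit match is GAA, TTC, GAA or TTC, GAA, TTC, and a 2-unit match is GAA, TTC or TTC, GAA, which every 3-unit match contains. The form with 3 units was in the promoters of 7 of 31 genes (22.6%), against 0.557% of the 27305 genes with promoters in the same table. Some genes have several promoters, and counted by promoter the shares were 15.9% of 44 and 0.441% of 35116. These genes were HSPA6, HSPA8, HSP90AA1, HSP90AB1, DNAJB6, HSPD1 and CHORDC1. A form with at least 2 units was in 16 of 31 (51.6%), against 14% of all genes. The CCAAT box was in 9 of 31 (29%), against 37% of all genes. The promoters of 6 genes are printed below as 3-unit examples (HSPA6, HSPA8, CHORDC1) and 2-unit examples (HSPA1A, DNAJB1, HSPB1) of genes whose values differ in the results. Each is written 5′ to 3′ on the gene's strand, ending at the base before the start, with the matching units in capitals.
HSPA6, chr1:161524290-161524539, plus strand: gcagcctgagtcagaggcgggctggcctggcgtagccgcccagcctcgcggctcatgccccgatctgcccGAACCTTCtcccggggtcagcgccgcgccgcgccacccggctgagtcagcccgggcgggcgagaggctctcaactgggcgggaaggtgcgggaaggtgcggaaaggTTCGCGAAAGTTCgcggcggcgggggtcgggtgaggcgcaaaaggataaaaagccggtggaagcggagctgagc
HSPA8, chr11:123062137-123062386, minus strand: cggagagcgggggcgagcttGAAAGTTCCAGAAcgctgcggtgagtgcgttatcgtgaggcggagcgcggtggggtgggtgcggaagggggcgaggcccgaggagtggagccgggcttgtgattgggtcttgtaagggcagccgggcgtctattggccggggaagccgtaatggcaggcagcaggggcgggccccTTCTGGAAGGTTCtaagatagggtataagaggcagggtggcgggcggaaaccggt
CHORDC1, chr11:90223050-90223299, minus strand: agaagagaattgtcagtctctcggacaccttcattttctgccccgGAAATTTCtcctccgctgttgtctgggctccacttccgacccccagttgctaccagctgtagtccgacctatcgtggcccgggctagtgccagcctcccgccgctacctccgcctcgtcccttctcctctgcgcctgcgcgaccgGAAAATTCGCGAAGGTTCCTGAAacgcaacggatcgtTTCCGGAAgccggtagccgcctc
HSPA1A, chr6:31815293-31815542, plus strand: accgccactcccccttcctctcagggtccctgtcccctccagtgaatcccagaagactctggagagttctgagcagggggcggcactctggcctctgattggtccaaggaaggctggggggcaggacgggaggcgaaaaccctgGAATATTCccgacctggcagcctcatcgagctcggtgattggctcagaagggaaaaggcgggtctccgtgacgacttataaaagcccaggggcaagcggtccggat
DNAJB1, chr19:14518398-14518647, minus strand: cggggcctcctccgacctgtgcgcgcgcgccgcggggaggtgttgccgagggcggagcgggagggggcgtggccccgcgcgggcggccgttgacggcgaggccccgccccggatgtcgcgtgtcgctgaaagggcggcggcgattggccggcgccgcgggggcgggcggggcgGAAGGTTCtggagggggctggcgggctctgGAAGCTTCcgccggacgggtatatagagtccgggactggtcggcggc
HSPB1, chr7:76302423-76302672, plus strand: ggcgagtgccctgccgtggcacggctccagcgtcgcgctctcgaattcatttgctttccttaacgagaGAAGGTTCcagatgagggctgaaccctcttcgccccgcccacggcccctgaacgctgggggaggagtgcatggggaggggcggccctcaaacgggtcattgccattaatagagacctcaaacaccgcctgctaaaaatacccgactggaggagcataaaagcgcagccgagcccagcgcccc
In the HSPA6 promoter the longest match starts 74 bases before the start of the gene, and a further pair of units starts 180 bases before it. DNAJB1 has a pair at 77 and another at 47 bases before the start of one of its 3 annotated promoters, the one printed. HSPA1A has a single pair, at 106 bases. A match is a string of letters in the window and does not show that a factor bound there. A missing match does not show that a gene lacks the element, since only exact units within 250 bases were searched.

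The combination against DEX asked what SH4-54 changed in cells that also received DEX. In this comparison heat shock genes rose together: 22 of 36 rose and 0 fell (edgeR quasi-likelihood test, Benjamini-Hochberg adjusted p below 0.05 over all 14184 tested genes). Of all tested genes, 13% rose and 13.5% fell. The list was not chosen independently of these data, so that the counts describe it and do not test it. The median log2 fold change of the 36 genes was 0.14, against 0.00 (0.0047) over all tested genes, and the single values ran from -0.04 to 9.37. The largest changes were those of HSPA6 and CRYAB, which had few reads in DEX wells, followed by HSPA1A, HSPA1B and DNAJB1, while most others moved by less than 0.35. By class, the genes that rose were 5 of 7 HSP70 genes, 2 of 3 HSP110 genes, both HSP90 genes, 5 of 6 HSP40 genes, all 3 small heat shock protein genes with CRYAB included, 1 of 3 BAG genes, 3 of 8 other cochaperones, 1 of 2 heat shock factors and 0 of 2 chaperonin genes. CRYAB passed the filter on low counts only through the combination wells, where it is high, so that its call is no support. Without it 21 of 35 genes rose and the median was 0.14 (0.1354). HSPH1, HSPB8, HSP90AA1, STIP1, CHORDC1, HSPA14, HSPA4L, DNAJA1 and DNAJB6, which rose here, fell with DEX against no drug, a comparison that shares the DEX wells. Among them, HSPA4L, HSP90AA1, DNAJA1 and DNAJB6 also fell in the combination against no drug, and the others were not called there. Of the 7 genes with a 3-unit match 5 rose, of the 9 with pairs only 8 rose, and of the 15 with no match 5 rose. With DEX against no drug 3, 3 and 6 of them fell and 1, 1 and 2 rose (all tested genes 23.2% and 21.9%). In the interaction, described below, 1, 4 and 2 had a positive call (all tested genes 2.44%). HSF1, HSPA14, CRYAB, ST13 and FKBP4 had no promoter here and are left out. A link between match and change was not tested.

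SH4-54 against no drug asked what the compound changed on its own. HSPA6 was the single heat shock gene that rose and none of the 36 fell. Among all tested genes, 0.268% rose and 0.331% fell, and HSPA6 had the largest fold change of all 14184. At an unadjusted p below 0.05 the numbers were 4 of 36 higher and 0 lower, where 5.9% of all tested genes were higher and 7.23% lower. The 4 were HSPA6, HSP90AA1, DNAJB1 and CRYAB. CRYAB is no support here, since it passed the filter only through the combination wells. The median log2 fold change of the 36 genes was 0.01 (0.0066), against -0.0036 over all tested genes.

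DEX against no drug asked what the glucocorticoid did without SH4-54. Here 14 of 36 genes fell and 4 rose, where 23.2% of all tested genes fell and 21.9% rose. The fallen genes included HSP90AA1, HSPH1, HSPA4L, HSPB8 and DNAJA1, with log2 fold changes between -0.55 and -0.35. The risen ones were BAG3, DNAJB2, DNAJB4 and the mitochondrial HSPD1. The median was -0.08 (-0.081), against -0.01 over all tested genes.

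The interaction compared the effect of SH4-54 in the presence of DEX with its effect in the absence of DEX, as the difference of log2 fold changes. It was positive and past the threshold for 7 of the 36 genes (HSPA1B, HSPH1, DNAJB1, DNAJB4, HSPB1, STIP1 and CHORDC1) and negative for 0, where 2.44% of all tested genes had a positive call and 1.46% a negative one. The median of the 36 differences was 0.15, against 0.01 (0.0057) over all tested genes. The count depended on single libraries: it was 15 without combination well 3, 4 without combination well 1 or DEX well 2, and 3 without DEX well 1 or 3, SH4-54 well 2 or 3 or no-drug well 2 or 3. Calls over all tested genes moved as well, from 346 positive and 207 negative in the full fit to 833 and 1213 without combination well 3. They were 200 and 96 without combination well 1, and 135 and 69 without DEX well 2. In the fits with 3 heat shock calls they were 141 to 178 positive and 68 to 85 negative. The calls of HSPA1B, HSPH1 and DNAJB1 held whichever library was left out.

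Against SH4-54 alone, the combination showed 18 of 36 genes risen and 8 fallen, where 20.1% of all tested genes rose and 20.3% fell. Against no drug it showed 16 risen and 8 fallen, where 21.1% of all tested genes rose and 21.6% fell. Without CRYAB the risen genes numbered 17 of 35 against SH4-54 and 15 of 35 against no drug. The comparisons share the combination wells. HSF2, HSPA13, HSPA4L, HSP90AA1, DNAJA1, DNAJB6, BAG1 and CACYBP fell in each of them.

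**Figure D2:**
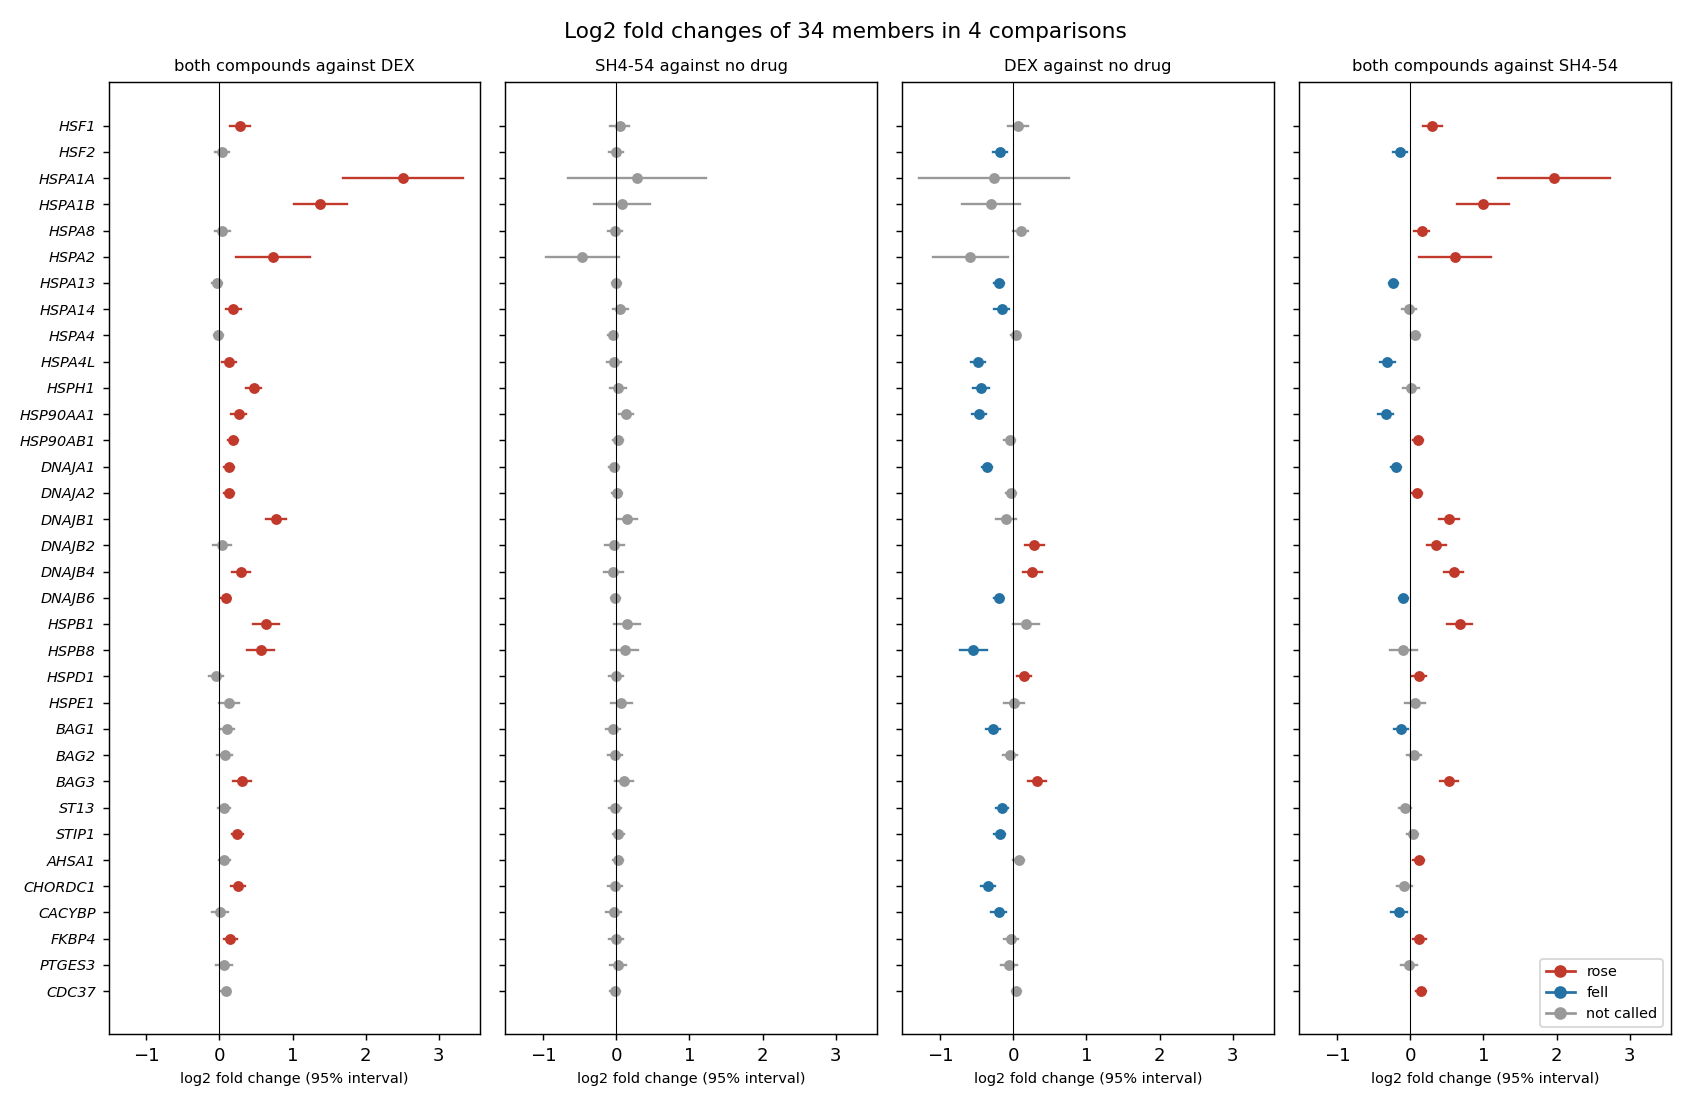
Log2 fold changes (horizontal axis) with 95% intervals for all members other than HSPA6 and CRYAB, in 4 comparisons, coloured by whether the gene rose, fell or was not called. Points for the combination against DEX lie mostly right of 0, with 22 of 36 members risen when the pair not drawn is counted, and those for DEX against no drug mostly left of it.

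HSF1, the principal heat shock transcription factor, had 38, 44.8 and 38.6 CPM in the combination wells, against 32.4, 33.5 and 34.1 CPM in DEX wells, 34.6, 31.1 and 32.7 CPM in SH4-54 wells and 31.5, 30.7 and 33.4 CPM in no-drug wells. The combination wells were all above the wells of the other groups. Its log2 fold change was 0.28 ± 0.063 for the combination against DEX (edgeR adjusted p = 0.005), and against no drug it was 0.07 ± 0.063 with DEX and 0.04 ± 0.063 with SH4-54 (adjusted p = 0.423 and 0.822). HSF2, a related factor that forms trimers with HSF1, had 35.5, 35.9 and 32.2 CPM in the combination wells, against 33.2, 33.9 and 33.6 CPM in DEX wells, 38.2, 37.3 and 38.3 CPM in SH4-54 wells and 38, 38.2 and 37.9 CPM in no-drug wells. It separated the wells by DEX rather than by SH4-54: all 6 wells with DEX lay below all 6 without it. Groups without overlap are common in these data. Among all tested genes, DEX wells lay wholly below no-drug wells in 28.9% and wholly above them in 27.2%. Combination wells lay wholly above DEX wells in 19.6%, SH4-54 wells in 24.3% and no-drug wells in 25.4%. SH4-54 wells lay wholly above no-drug wells in 9.13%. HSF2 fell with DEX against no drug (log2 fold change -0.18 ± 0.045, adjusted p = 0.00451).

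HSPA6, an HSP70 gene that is almost silent in unstressed human cells and has no counterpart in mice, had 150.3, 483 and 156 CPM in the combination wells, against 0.232, 0.308 and 0.641 CPM in DEX wells, 25.4, 27.1 and 19.4 CPM in SH4-54 wells and 0.501, 0.265 and 0.457 CPM in no-drug wells. The groups with SH4-54 did not overlap those without it, and the combination wells did not overlap the SH4-54 wells. Bulk RNA does not tell a change in all cells apart from a change in some of them. DEX wells and no-drug wells overlapped, with only 6 to 17 and 8 to 16 reads per library. The log2 fold change was 9.37 ± 0.62 for the combination against DEX (adjusted p = 5.05e-07), the largest of all 14184 genes, and 3.45 ± 0.36 for the combination against SH4-54 (adjusted p = 2.64e-06). For SH4-54 against no drug it was 5.86 ± 0.72 (adjusted p = 0.00118). The interaction was not called at 3.51 (95% interval -0.48 to 7.51, adjusted p = 0.303), with a range of adjusted p from 0.00131 to 0.467 over the alternatives. Combination well 2 stood far above the other combination wells, and without it the values were 8.59 for the combination against DEX, 2.68 against SH4-54 and 2.73 for the interaction, which then passed (adjusted p = 0.0126).

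HSPA1A, one of the pair of genes for the main inducible HSP70, had 2.8, 6.34 and 2.35 CPM in the combination wells, against 0.58, 0.685 and 0.716 CPM in DEX wells, 0.894, 0.939 and 1.08 CPM in SH4-54 wells and 0.501, 1.19 and 0.703 CPM in no-drug wells. HSPA1B, the other of the pair, had 4.2, 5.22 and 4.48 CPM in the combination wells, against 1.63, 1.99 and 1.7 CPM in DEX wells, 2.68, 2.48 and 1.78 CPM in SH4-54 wells and 2.57, 2.22 and 1.79 CPM in no-drug wells. Both genes were higher in every combination well than in any other well. Their reads are few, at most 175 per library for HSPA1A and 160 for HSPA1B, and the genes share most of their sequence. Against DEX the combination had log2 fold changes of 2.51 ± 0.38 for HSPA1A and 1.38 ± 0.17 for HSPA1B (adjusted p = 0.000389 and 9e-05). With the reads of the pair summed, the value was 1.79 (adjusted p = 3.67e-05), and without combination well 2 that of HSPA1A was 1.94. The SH4-54 wells did not stand apart from the no-drug wells in either gene, at 0.28 (95% interval -0.67 to 1.23) for HSPA1A and 0.08 (-0.31 to 0.46) for HSPA1B. The interaction was 1.31 ± 0.25 for HSPA1B (adjusted p = 0.0131) and 2.23 for HSPA1A, which missed the threshold (adjusted p = 0.0538, and 0.00207 to 0.166 over the alternatives).

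HSPA8, the constitutive HSC70, had 5824, 6169 and 5459 CPM in the combination wells, against 5550, 5666 and 5778 CPM in DEX wells, 5174, 5281 and 5209 CPM in SH4-54 wells and 5139, 5086 and 5636 CPM in no-drug wells. The combination and DEX wells overlapped, and the difference between them was 0.04 on the log2 scale (95% interval -0.06 to 0.14, adjusted p = 0.591). HSPA8 was higher in the combination than in SH4-54 wells by 0.16 ± 0.047 (adjusted p = 0.0165). HSPA2, best known from male germ cells, had 2.37, 3.22 and 1.77 CPM in the combination wells, against 1.51, 1.75 and 1.09 CPM in DEX wells, 1.48, 1.28 and 2.01 CPM in SH4-54 wells and 2.19, 2.02 and 2.35 CPM in no-drug wells. It rose in the combination against DEX by 0.73 ± 0.24 (adjusted p = 0.0326), a call that was lost without combination well 2 (0.48, adjusted p = 0.174), without combination well 1 or DEX well 1 or 3, and with the compared groups alone. HSPA14, an HSP70 that works at the ribosome, averaged 109 ± 7.72 CPM in the combination wells and 95.1 ± 2.59 CPM in DEX wells (log2 fold change 0.19 ± 0.048, adjusted p = 0.00974). HSPA13 averaged 153 ± 4.02 CPM in the combination wells, 156 ± 3.29 CPM in DEX wells and 179 CPM in both SH4-54 and no-drug wells, and fell with DEX against no drug.

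**Figure D3:**
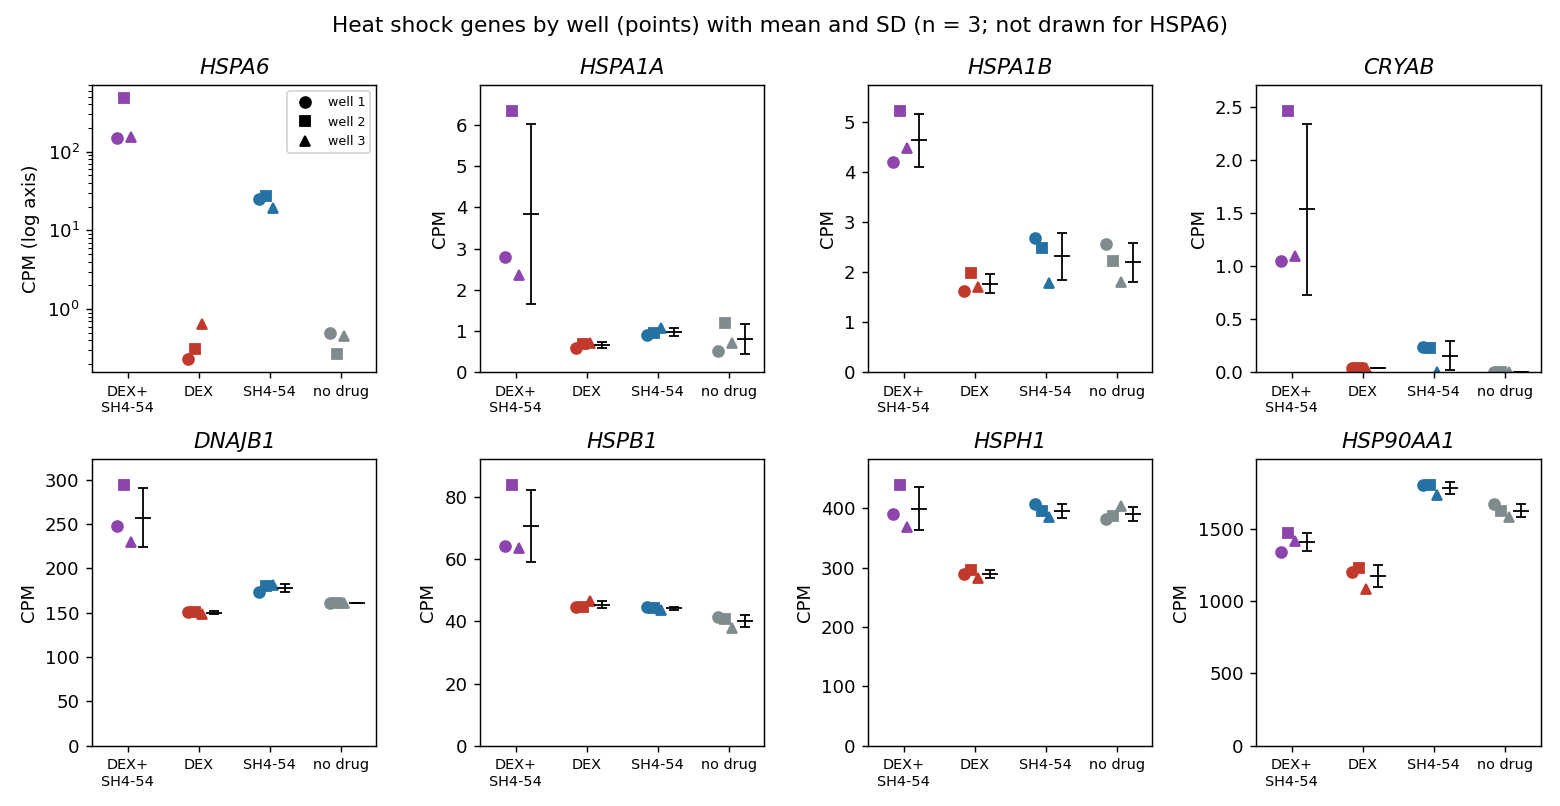
CPM by well for 8 heat shock genes (a logarithmic axis for HSPA6, linear axes from 0 for the others), with bars for the mean and SD of 3 wells, both left out for HSPA6. The combination wells of HSPA6 reach 150.3 to 483 CPM, and in the panels of HSPH1 and HSP90AA1 the DEX wells lie lowest.

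Among the HSP110 genes, whose products exchange the nucleotide of HSP70, HSPH1 had 391, 440 and 368 CPM in the combination wells, against 289, 297 and 282 CPM in DEX wells, 407, 395 and 385 CPM in SH4-54 wells and 383, 386 and 404 CPM in no-drug wells. The DEX wells lay below all others, and the other 3 groups overlapped. HSPH1 rose in the combination against DEX by 0.47 ± 0.051 (adjusted p = 3.28e-05) and fell with DEX against no drug by 0.44 ± 0.051 (adjusted p = 5.92e-06). Combination and no-drug wells differed by 0.03 (95% interval -0.08 to 0.14, adjusted p = 0.655). HSPA4L, a relative found mainly in testis, had 91.9, 95.8 and 88.3 CPM in the combination wells, against 82.5, 86.7 and 82.3 CPM in DEX wells, 118, 114 and 111 CPM in SH4-54 wells and 109, 120 and 122 CPM in no-drug wells. All wells with DEX lay below all wells without it. Its fall with DEX against no drug was 0.48 on the log2 scale, with an adjusted p of 6.3e-07. Its rise in the combination against DEX was small (0.13 ± 0.046, adjusted p = 0.0445) and was lost in 12 of 19 alternatives. HSPA4 averaged 477 ± 1.44 CPM in the combination wells and 481 ± 5.3 CPM in DEX wells and was called in none of the comparisons.

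HSP90AA1, the stress-inducible cytosolic HSP90, had 1340, 1470 and 1411 CPM in the combination wells, against 1203, 1229 and 1083 CPM in DEX wells, 1802, 1800 and 1730 CPM in SH4-54 wells and 1671, 1620 and 1578 CPM in no-drug wells. No group overlapped another: SH4-54 wells were highest, followed by no-drug, combination and DEX wells. The log2 fold changes were 0.26 ± 0.047 for the combination against DEX (adjusted p = 0.00112), -0.34 ± 0.047 for the combination against SH4-54 (adjusted p = 4.39e-05) and -0.47 ± 0.047 for DEX against no drug (adjusted p = 1.06e-06). SH4-54 against no drug was not called at 0.13 (95% interval 0.03 to 0.23, adjusted p = 0.244), nor was the interaction (0.13, adjusted p = 0.267). HSP90AB1, the constitutive form, had 2268, 2253 and 2180 CPM in the combination wells, against 1943, 1996 and 1962 CPM in DEX wells, 1994, 2149 and 2069 CPM in SH4-54 wells and 2012, 2049 and 2049 CPM in no-drug wells. Its combination wells lay above all others, and DEX wells overlapped SH4-54 wells. HSP90AB1 rose in the combination against DEX by 0.18 ± 0.033 (adjusted p = 0.00128), and for DEX against no drug it stood at -0.05 (adjusted p = 0.238), where HSP90AA1 fell.

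DNAJB1, the HSP40 that works with inducible HSP70 and a classical HSF1 target, had 248, 294 and 229 CPM in the combination wells, against 151, 151 and 149 CPM in DEX wells, 173, 180 and 181 CPM in SH4-54 wells and 161, 161 and 161 CPM in no-drug wells. The combination wells stood above all others, and the DEX wells lay below all others. The SD was 33.5 CPM over the combination wells, 1.34 CPM over DEX wells, 4.25 CPM over SH4-54 wells and 0.261 CPM over no-drug wells. DNAJB1 rose in the combination by 0.78 ± 0.063 against DEX (adjusted p = 2.51e-06) and by 0.53 ± 0.063 against SH4-54 (adjusted p = 9.42e-06). SH4-54 against no drug was not called at 0.14 (95% interval 0.01 to 0.28, adjusted p = 0.354), although the SH4-54 wells lay above all no-drug wells. DEX against no drug was not called at -0.10 (adjusted p = 0.212), but was called with the compared groups alone and without combination well 2. The interaction was 0.63 ± 0.089 (adjusted p = 0.00252).

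The other HSP40 genes differed in what DEX did to them. DNAJB4 averaged 48.1 ± 3.25 CPM in the combination wells, 39.2 ± 2.39 CPM in DEX wells, 31.9 ± 0.247 CPM in SH4-54 wells and 32.8 ± 2.17 CPM in no-drug wells. It rose with DEX against no drug (0.26, adjusted p = 0.00288) and rose further in the combination against DEX (0.30, adjusted p = 0.00259). DNAJB2, known for its neuronal isoforms, averaged 28.2 ± 0.664 CPM in the combination wells, 27.6 ± 2.6 CPM in DEX wells, 22.1 ± 0.883 CPM in SH4-54 wells and 22.5 ± 0.311 CPM in no-drug wells, all wells with DEX lying above all wells without it. DNAJA1, a general HSP70 partner, went the other way, with 390 ± 9.19 CPM in the combination wells, 357 ± 7.05 CPM in DEX wells, 447 ± 8.8 CPM in SH4-54 wells and 457 ± 15.3 CPM in no-drug wells. It fell with DEX against no drug by 0.35 on the log2 scale (adjusted p = 4.5e-07) and rose in the combination against DEX by 0.13 (adjusted p = 0.0114). DNAJB6, which suppresses protein aggregation, showed the same order with smaller steps, at 247 ± 6.96 CPM in the combination wells, 232 ± 3.24 CPM in DEX wells, 264 ± 1.23 CPM in SH4-54 wells and 267 ± 3.37 CPM in no-drug wells. Its rise in the combination against DEX was small (0.09 ± 0.029, adjusted p = 0.0362). The call was lost in many alternatives, among them the DESeq2 Wald test, no count filter and the fits without DEX well 1, 2 or 3. DNAJA2 averaged 260 ± 10.7 CPM in the combination wells and 236 ± 2.15 CPM in DEX wells (0.14, adjusted p = 0.00832).

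HSPB1 (HSP27), a small heat shock protein that holds unfolding proteins without ATP, had 64.1, 83.8 and 63.5 CPM in the combination wells, against 44.7, 44.6 and 46.7 CPM in DEX wells, 44.5, 44.2 and 43.7 CPM in SH4-54 wells and 41.4, 40.8 and 37.9 CPM in no-drug wells. The combination wells lay above all others, and DEX and SH4-54 wells both lay above the no-drug wells. HSPB1 rose in the combination by 0.64 ± 0.082 against DEX (adjusted p = 0.000109) and by 0.68 ± 0.082 against SH4-54 (adjusted p = 1.16e-05), while neither DEX (0.18, adjusted p = 0.0962) nor SH4-54 (0.14, adjusted p = 0.498) was called against no drug. HSPB8, which works with BAG3 in the removal of damaged proteins, had 33.2, 38.2 and 28.9 CPM in the combination wells, against 24.2, 20.4 and 23.2 CPM in DEX wells, 34.8, 35.3 and 36.9 CPM in SH4-54 wells and 30.6, 34.3 and 34 CPM in no-drug wells. As in HSPH1, the DEX wells were the low group, and the combination wells spanned the range of the SH4-54 and no-drug wells. HSPB8 fell with DEX against no drug by 0.55 ± 0.088 (adjusted p = 0.000133) and rose in the combination against DEX by 0.56 ± 0.088 (adjusted p = 0.000468).

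CRYAB, the small heat shock protein αB-crystallin, had 27, 68 and 39 reads (1.05, 2.46 and 1.09 CPM) in the combination wells, against 1, 1 and 1 reads in DEX wells, 7, 6 and 0 reads in SH4-54 wells and 0 reads in all 3 no-drug wells. The combination wells were far above every other well, though their levels stayed low. Summed over wells and scaled for library size, the ratio of combination to DEX was 40.9 (95% counting interval 13.7 to 201) and that of combination to SH4-54 was 9.45 (5.34 to 18.2). With 3 reads put in place of the 0 of the no-drug group, the ratio to it was 45.4 for the combination and 4.81 for SH4-54 alone. The counting error of the combination and SH4-54 reads is left out of these ratios, and the SH4-54 reads came from wells 1 and 2 only. The intervals given cover counting error only. Since the gene entered the test only through its combination wells, no test of it is given.

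The chaperonin genes HSPD1 and HSPE1, whose products form the folding chamber of the mitochondrial matrix, were not called in the combination against DEX. HSPD1 averaged 949.9 ± 56.4 CPM in the combination wells, 979 ± 19.3 CPM in DEX wells, 874 ± 34.5 CPM in SH4-54 wells and 881 ± 38.3 CPM in no-drug wells, and rose with DEX against no drug (0.15, adjusted p = 0.0123). HSPE1 averaged 66.7 ± 7.78 CPM in the combination wells, 60.9 ± 2.84 CPM in DEX wells, 63.8 ± 2.02 CPM in SH4-54 wells and 60.7 ± 2.12 CPM in no-drug wells, with no call in any comparison. These genes share a promoter region, from which they run in opposite directions.

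BAG3, a BAG-family cochaperone that links HSP70 to autophagy, had 55.8, 66.7 and 63.3 CPM in the combination wells, against 52.7, 50.1 and 47.3 CPM in DEX wells, 42.9, 42.5 and 43.4 CPM in SH4-54 wells and 40.5, 38.4 and 41 CPM in no-drug wells. The 4 groups did not overlap. BAG3 rose with DEX against no drug by 0.32 ± 0.059 (adjusted p = 0.000401) and in the combination against DEX by 0.31 ± 0.058 (adjusted p = 0.00171), and SH4-54 against no drug stood at 0.10 (adjusted p = 0.487). BAG1, which also exchanges the nucleotide of HSP70, averaged 60.5 ± 2.52 CPM in the combination wells, 56.1 ± 1.74 CPM in DEX wells, 65.7 ± 3.54 CPM in SH4-54 wells and 67.9 ± 0.632 CPM in no-drug wells, and fell with DEX against no drug (-0.28, adjusted p = 0.000135). BAG2 averaged 117 ± 7.77 CPM in the combination wells and 111 ± 2.38 CPM in DEX wells and was not called.

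Of the 8 other cochaperones, STIP1, CHORDC1 and FKBP4 rose in the combination against DEX and the other 5 were not called. STIP1 (HOP), which bridges HSP70 and HSP90, averaged 373 ± 16.4 CPM in the combination wells, 315 ± 1.92 CPM in DEX wells, 364 ± 5.38 CPM in SH4-54 wells and 358 ± 11.6 CPM in no-drug wells. CHORDC1, an HSP90-binding protein, averaged 110.5 ± 5.2 CPM in the combination wells, 92.7 ± 1.3 CPM in DEX wells, 117 ± 2.73 CPM in SH4-54 wells and 118 ± 7.46 CPM in no-drug wells. In both genes the DEX wells were the low group, with falls against no drug of 0.19 for STIP1 (adjusted p = 0.000495) and 0.35 for CHORDC1 (adjusted p = 1.9e-05). The immunophilin FKBP4, an HSP90 partner in steroid receptor complexes, averaged 204 ± 11.8 CPM in the combination wells, 184 ± 4.93 CPM in DEX wells, 187 ± 3.1 CPM in SH4-54 wells and 188 ± 8.1 CPM in no-drug wells (combination against DEX 0.15, adjusted p = 0.0177). CACYBP and ST13 fell with DEX against no drug (-0.20 and -0.15, adjusted p = 0.00408 and 0.00404). AHSA1, which speeds the HSP90 ATPase, and CDC37, which brings kinases to HSP90, stood at 0.07 and 0.09 for the combination against DEX (adjusted p = 0.172 and 0.0537), and PTGES3 at 0.06 (adjusted p = 0.393).

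The wells of the combination were unequal. Combination well 2 was the highest of its group for 28 of the 36 genes (77.8%), while it was the highest for 34.9% of the 14184 tested genes. Combination well 3 was the highest for 2 of the 36 (5.56%), against 36.4% of all tested genes. Other groups also leaned to a well: DEX well 2 and no-drug well 3 were each the highest for 20 of 36 (55.6%), against 33.5% and 35.3% of all tested genes. No-drug well 1 was the highest for 6 of 36 (16.7%), against 34.9% of all tested genes. The ratio of well 2 to the mean of the other combination wells was 3.15 for HSPA6, 2.46 for HSPA1A, 2.3 for CRYAB, 1.56 for HSPA2, 1.31 for HSPB1 and 1.23 for DNAJB1, and it was close to 1 for HSPA4 (0.995) and HSPA13 (0.982). Over the 36 genes the median SD of log2 CPM was 0.087 in the combination wells, 0.037 in DEX wells, 0.034 in SH4-54 wells and 0.05 in no-drug wells, and over all tested genes it was 0.086, 0.064, 0.068 and 0.062 in the same groups. Without combination well 2, 18 of the 36 genes rose against DEX: HSPA2, HSPA4L, DNAJB6 and FKBP4 lost their calls. HSPA6 then stood at 8.59, HSPA1A at 1.94, DNAJB1 at 0.67 and HSPB1 at 0.49 on the log2 scale, all still called. The part of the differences between wells in these results was not tested.

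**Figure D4:**
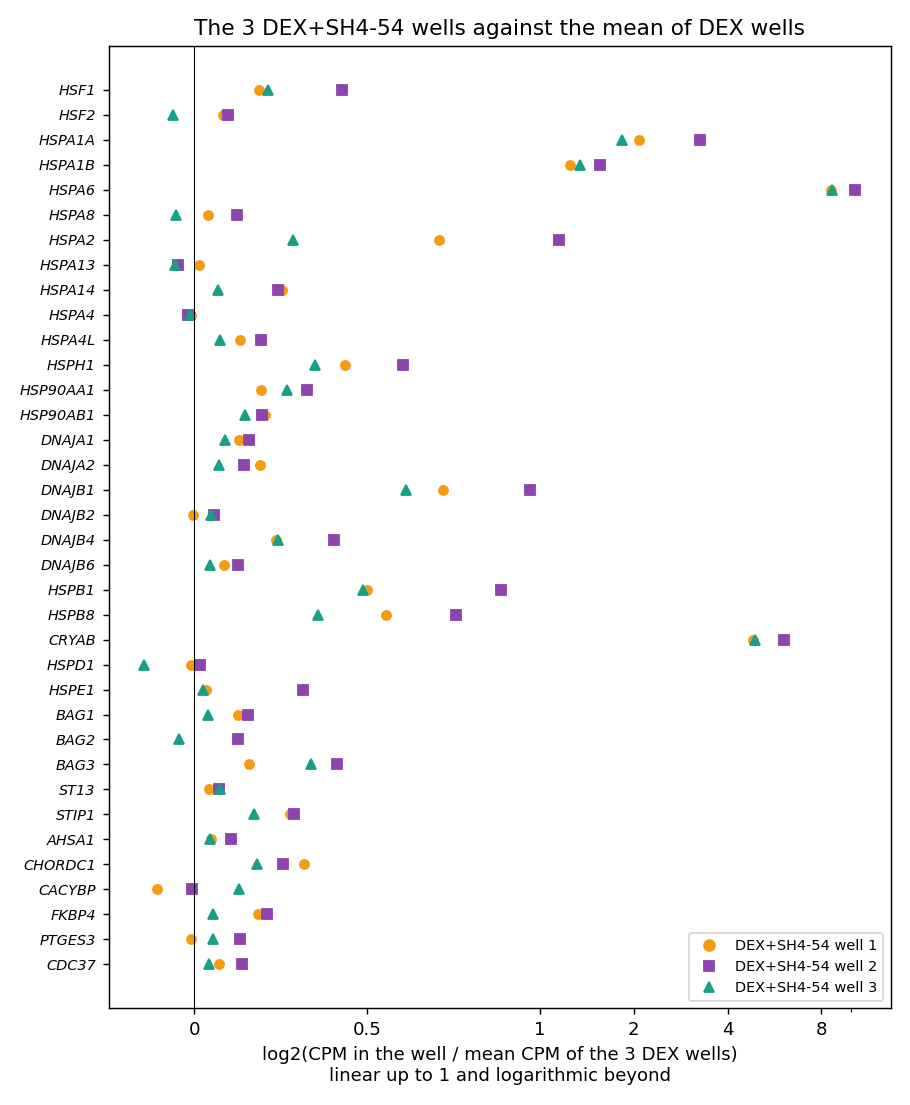
Log2 ratio of each combination well to the mean of the 3 DEX wells (horizontal axis, linear up to 1 and logarithmic above), for all 36 genes. Well 2 is the highest point for 28 of 36 genes, and the wells lie widest apart for HSPA6, HSPA1A and CRYAB.

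Genes around this set were counted in the same way, in lists that were also chosen with earlier results of these data known. Of 13 tested genes linked to HSF1 or to the stress response outside the 36, 6 rose and 0 fell in the combination against DEX, with a median log2 fold change of 0.17. As above, 13% of all tested genes rose and 13.5% fell in this comparison. The 3 with the smallest p were SQSTM1, an autophagy receptor (0.60 ± 0.047, adjusted p = 2.1e-06), CLU, a secreted chaperone (1.05 ± 0.088, adjusted p = 2.93e-06), and IER5, a regulator of HSF1 (0.60 ± 0.06, adjusted p = 1.24e-05). In all 3 the DEX wells were the low group: with DEX against no drug SQSTM1 stood at -0.89, CLU at -1.01 and IER5 at -1.02 (adjusted p = 1.18e-09, 2.21e-07 and 3.09e-09). In the combination against no drug SQSTM1 and IER5 fell (-0.29 and -0.41, adjusted p = 0.000152 and 4.28e-05), and CLU stood at 0.04 (adjusted p = 0.707). The cytosolic chaperonin CCT and its partner prefoldin, which fold actin and tubulin, had 3 of 13 genes risen and 0 fallen (PFDN4 at 0.26, VBP1 at 0.15 and TCP1 at 0.12). Of 19 other HSP70 and HSP90 cochaperones 4 rose and 1 fell, among them TOMM34 (0.24) and USP19 (0.12), which rose. The fallen gene was FKBP5, an HSP90 cochaperone and glucocorticoid target, with 218 ± 47.1 CPM in the combination wells, 326.5 ± 17.5 CPM in DEX wells, 54.4 ± 2.26 CPM in SH4-54 wells and 53.9 ± 1.57 CPM in no-drug wells (-0.58 ± 0.1, adjusted p = 0.000963). Of 35 other DNAJ genes 4 rose and 6 fell (DNAJC15 at -0.29, DNAJC6 at -0.25, GAK at 0.27), shares of 11.4% and 17.1% that are near those of all tested genes. Of 9 HSP70, HSP90 and associated genes of organelles, 2 rose and 0 fell (CLPB at 0.18, HSPA5 at 0.16). Of 8 other small heat shock protein genes only HSPB11 had enough reads to be tested, and it was not called (-0.0049, adjusted p = 0.954). In the combination against no drug the HSF1-linked list had 5 risen and 4 fallen genes of 13, where 21.1% of all tested genes rose and 21.6% fell. Against SH4-54 it had 5 risen and 3 fallen (all tested genes 20.1% and 20.3%), and with DEX against no drug 3 risen and 5 fallen (21.9% and 23.2%). In the interaction 5 were positive and 0 negative (2.44% and 1.46%), and with SH4-54 against no drug 1 rose and 0 fell (0.268% and 0.331%). The organelle list had 6 risen and 2 fallen genes of 9 with DEX against no drug, the fallen share of 22.2% being near the 23.2% of all tested genes.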

How the data were processed

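Total RNA was depleted of ribosomal RNA and sequenced as stranded 50-base single-end libraries, per the labels' protocols. The deposited file is a table of raw read counts by gene symbol, and 4474 of its rows are 0 throughout. The submitters' processing notes name the builds hg19 and GRCh37 and the tools HISAT2 2.1.0, featureCounts 1.5.1 and SAMtools. No source used here gives the annotation, the strand setting or the treatment of reads with several positions. The analysis used edgeR 4.0.16 in R 4.3.3: filterByExpr by group, TMM scaling and 1 quasi-likelihood fit of 4 groups to 12 libraries (8 residual degrees of freedom). P-values were adjusted by Benjamini-Hochberg across 14184 genes (threshold 0.05), and every adjusted p is edgeR's unless named otherwise. Standard errors are the size of the log2 fold change divided by the root of its F statistic. The members and lists were chosen with earlier results of these data known. Values by well are given for HSF1, HSF2, the principal HSP70, HSP90, HSP110 and HSP40 genes, HSPB1, and any member among the 10 largest changes in the combination against DEX or the 5 largest in another comparison. From each wider list the 3 genes with the smallest p in the combination against DEX are named. Groups and replicate numbers came from the sample titles. On simulated counts the test for the combination against DEX, run on 14184 genes, found 31 of 50 genes set to 1.25-fold, 47 of 50 set to 1.5-fold and all 50 set to 2-fold, and 6.81% of its calls were false. Alternatives were the Wald test and size factors of DESeq2 1.42.0, other filters, a replicate block, the compared groups alone, summed copies and each library left out. Libraries of a group differed by more than sampling noise (lowest chi-square 4.26 per degree of freedom). Promoters are RefSeq's (GRCh38.p14), and no coordinates of that build were joined to the counts.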

Additional observations from a re-analysis of the deposited data

Results flagged for a closer look

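The interaction test called 7 of the 36 heat shock genes (19.4%), all with a positive difference (edgeR, adjusted over 14184 genes). Among all tested genes, 2.44% had a positive call and 1.46% a negative one. Only the calls of HSPA1B, HSPH1 and DNAJB1 held whichever library was left out. Those of DNAJB4, HSPB1, STIP1 and CHORDC1 were each lost in several of these fits, for example all together without DEX well 1. The difference in log2 fold change, SH4-54 effect with DEX minus SH4-54 effect without DEX, was 1.31 for HSPA1B (adjusted p = 0.0131), 0.63 for DNAJB1 (adjusted p = 0.00252), 0.5 for HSPB1 (adjusted p = 0.0311) and 0.45 for HSPH1 (adjusted p = 0.00611). It was 0.34 for DNAJB4 (adjusted p = 0.0432), 0.27 for CHORDC1 (adjusted p = 0.0344) and 0.22 for STIP1 (adjusted p = 0.0252). The effects behind these differences were 1.38 with DEX and 0.08 without it for HSPA1B, 0.78 and 0.14 for DNAJB1, and 0.47 and 0.02 for HSPH1. In HSPH1, STIP1 and CHORDC1 the DEX wells were the low group, while in HSPA1B, DNAJB1, HSPB1 and DNAJB4 the combination wells were the high group. In DNAJB1 the DEX wells also lay below all others.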

How the results depend on the processing

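Counts of called heat shock genes were within 1.5 times the reported ones under most alternatives. With the compared groups alone, SH4-54 against no drug had 2 calls, DNAJB1 added to HSPA6. The interaction had 12 calls with the DESeq2 Wald test and 11 without a count filter, against 7. Over all genes these settings gave 754 and 848 interaction calls. With 1 library left out at a time there were 18 to 25 calls for the combination against DEX, 19 to 24 against SH4-54 and 21 to 26 against no drug, 16 to 21 for DEX against no drug, 1 for SH4-54 against no drug in every fit and 3 to 15 for the interaction. In the same fits all tested genes had 2213 to 4633 calls for the combination against DEX and 204 to 2046 for the interaction. The cause of these changes was not tested. The replicate block gave 20, 22, 23, 18, 1 and 7 calls in the same order, and in the interaction it lost CHORDC1 and gained HSPA1A. Same-numbered wells did not deviate together (correlations from -0.0975 to 0.0926), and 3 of 12 libraries correlated best with their own number, so the numbers were not taken as pairs. Of 52 called results for the genes given by well, 43 kept their call under every alternative that gave a value, and of 44 uncalled ones 34 stayed uncalled. None reversed. The 52 and the 43 include the calls of CRYAB in the combination against DEX, SH4-54 and no drug, which are no support. CRYAB had no value under the stricter count filter. No scaling moved the median of all genes by over 0.1. Depth limits HSPA1A, HSPA1B, HSPA2 and CRYAB, and HSPA6 where SH4-54 is absent.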

Other observations

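HSPA7, the pseudogene that shares sequence with HSPA6, had too few reads in most wells and was not tested. It had 9, 196 and 1661 reads in the combination wells (0.35, 7.1 and 46.5 CPM), 0 in all DEX wells and 1 read in total in each of the SH4-54 and no-drug groups. Its level was highest in combination well 3, whereas HSPA6 was highest in well 2. The number of HSPA6 reads per HSPA7 read was 429.8 (95% counting interval 226 to 941) in combination well 1, 68 (59.1 to 78.7) in well 2 and 3.35 (3.17 to 3.54) in well 3. Their sum was 150.6, 490.2 and 203 CPM in the 3 wells, with well 2 still the highest.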
